A study of Mus musculus with 27 samples.

Results

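The contactin and contactin-associated protein genes were followed through 3 subcellular fractions of 3 mouse cell types. The members were the 10 listed symbols Cntn1, Cntn2, Cntn3, Cntn4, Cntn5, Cntn6, Cntnap1, Cntnap2, Cntnap4 and Cntnap5b, out of 37332 genes in the count table. All 10 were found in the count table and in the table of TPM, transcript abundance scaled to length, and all 10 passed the filter on low counts that left 18249 genes for testing. Cntn6 passed without reaching the filter's level in any mESC group. Cntn2, Cntnap2 and Cntnap5b passed without reaching it in any mNPC group, Cntnap5b through 4 of the 9 groups. A difference between cell types was thus built into the passing of these genes. Cntn1, Cntn4, Cntn5, Cntnap1 and Cntnap5b reached the level in only 1 mESC group. The related genes Cntnap3, Cntnap5a and Cntnap5c were not members.

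Contactins are immunoglobulin-superfamily adhesion proteins held on the outer membrane surface by a lipid anchor, best known from axons. Contactin-associated proteins, or Caspr proteins, are their neurexin-like transmembrane partners. Cntn1 with Cntnap1 builds the junction between axon and myelin beside each node of Ranvier, and Cntn2 with Cntnap2 gathers potassium channels in the neighbouring axon segment. Cntn3 to Cntn6 bind the receptor phosphatase Ptprg and related partners and take part in neurite growth and synapse formation.

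The study separated chromatin-associated (Chr), soluble nucleoplasmic (Nuc) and cytoplasmic (Cyto) RNA to follow transcripts along neuronal differentiation. The mESC groups were E14 mouse embryonic stem cells, an established line grown with LIF on gelatin. The mNPC groups were a neuronal progenitor line that the laboratory had made, fed every day with EGF and FGF at 10 ng/ml in B27 medium. The mCtx groups were primary cortical neurons kept for 5 days on poly-L-lysine, whose sample labels read E15D5. Neither a genotype nor a drug treatment separates the groups. The 3 biological replicates of each cell type and fraction made 27 libraries with 11249862 to 19871198 reads counted on genes. Each of the first 2 cell types was 1 line, so differences between cell types are also differences between these lines and a primary culture. The labels do not say whether the replicates were separate cultures, and the p-values then measure only the spread between these samples.

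The summed level of 6 stem cell markers was 839.5 to 4000 CPM in mESC libraries and at most 3.51 CPM elsewhere. CPM are counts scaled to a common library total, here adjusted by edgeR's TMM method. The 7 neuron markers summed to 5029 to 8621 CPM in mCtx, but also to 1794 to 2117 CPM in mNPC chromatin and 601.3 to 764 CPM in the other mNPC fractions. Most of the mNPC sum was Map2, with means of 1886, 616.5 and 643.5 CPM in chromatin, nucleoplasm and cytoplasm. Each other neuron marker had mNPC means of at most 48.13 CPM. The 7 progenitor and radial glia markers summed to 1446 to 7335 CPM in mNPC, and in mCtx to 238 to 247 CPM in chromatin, 620.1 to 680 CPM in nucleoplasm and 953 to 1127 CPM in cytoplasm. The mNPC libraries also carried markers of the oligodendrocyte lineage, 7 genes with none at 0, at 501.9 to 576 CPM in chromatin, 2707 to 3303 CPM in nucleoplasm and 1723 to 1780 CPM in cytoplasm. In mCtx the same 7 genes summed to 30.7 to 162 CPM, and the 4 interneuron markers to 53.8 to 80.4 CPM. The 5 astrocyte markers summed to 163 to 997 CPM in mNPC and 23.3 to 133 CPM in mCtx. In mESC the 3 endothelial markers, led by Pecam1, summed to 34.7 to 380.2 CPM. Microglia and fibroblast lists stayed at or under 76.01 CPM in every library.

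The genes are spread over 6 chromosomes, and most are very long. In the deposited mm10 coordinates Cntn1 spans chr15:92051165-92341967, Cntn2 chr1:132509425-132542940, Cntn3 chr6:102163306-102464667, Cntn4 chr6:105677660-106699310, Cntn5 chr9:9660891-10904775 and Cntn6 chr6:104492790-104863406. Cntnap1 spans chr11:101170523-101190724, Cntnap2 chr6:45060061-47301369, Cntnap4 chr8:112570043-112882717 and Cntnap5b chr1:99772765-100485942. Cntn3, Cntn4, Cntn6 and Cntnap2 lie on chromosome 6. Cntnap2 is the longest at 2241.3 kb, and exons take up 0.457% of its span in the GENCODE vM21 annotation. Only Cntn2, at 33.5 kb and 27.8% exonic, and Cntnap1, at 20.2 kb and 29.1% exonic, span under 100 kb. A count here covers reads anywhere in the span, introns included, whereas TPM is scaled to length over a transcript set that is not given in the sources used here. Cntnap1 overlaps the opposite-strand genes Plekhh3 and Ccr10, and antisense genes lie within Cntn3, Cntn5 and Cntnap4. Whether counting used the strand is not stated, so reads of such pairs cannot be told apart. Cntnap5b shares a recent family with Cntnap5a and Cntnap5c, so its counts are uncertain where the sequences are nearly identical.

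Promoter windows of RefSeq, 300 bases around annotated starts, were matched by symbol for 8 of the 10 members with 13 windows in all. Cntnap1 and Cntnap4 had no entry. A set of 4 windows is shown because these genes were together at their highest in mCtx and yet start from unlike sequence, and because Cntnap2 has an upstream and a downstream start listed. Capitals mark CpG dinucleotides, the letters CG.

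Cntn5, GRCm38.p6 chr9:10904677-10904976, strand -: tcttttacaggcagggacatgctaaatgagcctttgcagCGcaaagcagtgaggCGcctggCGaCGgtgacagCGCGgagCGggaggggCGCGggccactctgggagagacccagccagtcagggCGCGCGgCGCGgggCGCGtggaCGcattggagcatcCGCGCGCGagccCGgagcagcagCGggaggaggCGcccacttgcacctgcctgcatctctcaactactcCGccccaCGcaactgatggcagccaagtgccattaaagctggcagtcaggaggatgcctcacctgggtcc

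Cntn3, GRCm38.p6 chr6:102464618-102464917, strand -: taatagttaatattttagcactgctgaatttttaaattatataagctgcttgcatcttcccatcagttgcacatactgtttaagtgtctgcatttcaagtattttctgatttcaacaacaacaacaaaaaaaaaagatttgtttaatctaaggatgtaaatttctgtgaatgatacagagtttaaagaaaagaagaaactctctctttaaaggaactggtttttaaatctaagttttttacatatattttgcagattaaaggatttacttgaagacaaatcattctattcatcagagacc

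Cntnap2, upstream start, GRCm38.p6 chr6:45059811-45060110, strand +: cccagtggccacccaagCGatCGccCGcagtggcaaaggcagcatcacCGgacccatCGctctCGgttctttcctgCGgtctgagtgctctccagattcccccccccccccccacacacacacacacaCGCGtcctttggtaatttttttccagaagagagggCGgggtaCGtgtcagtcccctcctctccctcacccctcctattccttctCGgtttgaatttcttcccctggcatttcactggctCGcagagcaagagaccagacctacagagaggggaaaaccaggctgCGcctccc

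Cntnap2, downstream start, GRCm38.p6 chr6:47244146-47244445, strand +: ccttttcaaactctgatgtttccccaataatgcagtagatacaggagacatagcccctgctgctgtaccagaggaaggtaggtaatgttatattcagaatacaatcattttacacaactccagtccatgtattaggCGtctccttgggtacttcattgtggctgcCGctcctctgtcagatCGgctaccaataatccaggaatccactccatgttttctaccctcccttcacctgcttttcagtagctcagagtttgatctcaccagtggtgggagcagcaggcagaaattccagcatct

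Cntn5 had 26 CpG in this window and Cntn3 had 0, against a median of 7 over 32851 promoter windows of the same length. The upstream Cntnap2 window had 14 and the downstream one 3. Searched on both strands, the GC box GGGCGG was found in 4 of the 13 member windows and in 35.7% of all windows. The TATA box TATAAA was in 1 of 13 against 13.6%, and CCAAT in 7 of 13 against 37.4%. Such a match is a description of the letters and not of a bound site.

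The genes were mostly at their highest in cortical neurons, but each had its own course before that. Cntn1 was already abundant in progenitors. Its chromatin values were 3.07, 1.51 and 0.841 CPM in the 3 mESC libraries, 299.2, 332 and 265.7 CPM in mNPC and 772, 821 and 899 CPM in mCtx. Its nucleoplasmic values were 1.29, 0.188 and 0.212 CPM in mESC, 860, 803 and 594 CPM in mNPC and 772, 752 and 750 CPM in mCtx. The chromatin groups did not overlap between cell types, whereas the nucleoplasmic ranges of mNPC and mCtx did. In cytoplasm Cntn1 was at 0.162, 0.178 and 0.121 CPM in mESC, 69.2, 55.5 and 46.3 CPM in mNPC and 195, 155 and 195 CPM in mCtx. The oligodendrocyte-lineage list given above was high in the same mNPC libraries, and so was Map2, which made up most of their neuron-marker sum. The part of either in the Cntn1 level was not tested. In these bulk samples fewer cells that express a gene and less RNA per cell cannot be told apart.

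Cntn2, also called TAG-1, marks outgrowing axons and ran a different course. Its chromatin values were 4.98, 4.65 and 4.83 CPM in mESC, 0.178, 0.0548 and 0 CPM in mNPC and 87.9, 84.7 and 75.2 CPM in mCtx. Cytoplasmic values were 2.05, 1.84 and 1.21 CPM in mESC, 0.158, 0.108 and 0 CPM in mNPC and 127, 177 and 171 CPM in mCtx. The order was thus mCtx, mESC and mNPC, without overlap, in both fractions. Its nucleoplasmic mean of 277 ± 17.6 CPM (SD, n = 3) in mCtx was its highest group, and all neighbours in its order of groups were separate except chromatin and cytoplasm of mNPC.

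Cntn5 was low in stem cells and progenitors and abundant in neurons. Chromatin libraries held 3.37, 4.91 and 3.63 CPM in mESC, 26.5, 21.5 and 26.7 CPM in mNPC and 2968, 3370 and 3704 CPM in mCtx. Cytoplasmic libraries held 0.215, 0.119 and 0.303 CPM in mESC, 0.631, 0.324 and 0.576 CPM in mNPC and 67.1, 68.6 and 72.9 CPM in mCtx. No cell type overlapped another in either fraction.

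Cntn6 was close to absent from stem cells. Its mESC libraries gave 3 chromatin reads in all and 0 reads in nucleoplasm and cytoplasm, where 3 reads would be at most 0.212 and 0.182 CPM. In chromatin it stood at 21.4, 18.7 and 13.9 CPM in mNPC and 133, 153 and 190 CPM in mCtx. In cytoplasm it stood at 0.893, 0.917 and 0.864 CPM in mNPC and 14.1, 13.1 and 14.9 CPM in mCtx. The 3 cell types were separate in both fractions.

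Cntn3 and Cntn4 shared the high point in mCtx and were lower elsewhere. Cntn3 had chromatin means of 5.24 ± 2.27, 4.45 ± 0.741 and 223 ± 29.0 CPM (SD, n = 3) in mESC, mNPC and mCtx, and the first 2 ranges overlapped. Cntn4 had chromatin means of 1.95 ± 0.217, 11.6 ± 1.94 and 61.4 ± 10.3 CPM in the same order, with no overlap. In cytoplasm Cntn4 reached only 2.21 ± 1.13 CPM in mCtx, where its 3 libraries were at 1.56, 1.55 and 3.52 CPM.

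Among the partner family, Cntnap2, whose protein is Caspr2, fell in progenitors before its high point in neurons. Its chromatin values were 21.4, 25.2 and 19.4 CPM in mESC, 0.652, 0.548 and 0.553 CPM in mNPC and 1233, 1376 and 1627 CPM in mCtx. Its cytoplasmic values were 4.79, 7.55 and 7.87 CPM in mESC, 0.526, 0.485 and 0.144 CPM in mNPC and 72.8, 68.7 and 75.2 CPM in mCtx. As with Cntn2, its partner on axons, the mNPC libraries were the lowest in both fractions.

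Cntnap4, a Caspr protein of synapses, was present in all 9 groups. Chromatin libraries held 37.7, 28.2 and 16.0 CPM in mESC, 20.2, 18.7 and 17.1 CPM in mNPC and 322, 322 and 382 CPM in mCtx. The mESC and mNPC ranges overlapped, and mCtx lay above both. Cntnap5b was low outside neurons. Its mESC libraries gave 20, 22 and 15 reads in chromatin (0.976, 1.15 and 0.788 CPM), 10 in nucleoplasm and 7 in cytoplasm. Its mNPC libraries gave 6 reads in chromatin, 4 in nucleoplasm and 5 in cytoplasm, close to the counting limit. In mCtx it had 154, 165 and 171 CPM in chromatin and 8.44, 7.64 and 7.98 CPM in cytoplasm.

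Cntnap1, the Caspr protein of the paranodal junction, was low everywhere. Group means ran from 0.490 ± 0.289 CPM (SD, n = 3) in mESC cytoplasm to 5.07 ± 0.314 CPM in mNPC nucleoplasm. Most neighbouring groups in its order overlapped. In mCtx chromatin it was at 1.71, 1.61 and 2.45 CPM, within the range of the other cell types' groups. Its opposite-strand neighbour Plekhh3 was at 47.6 ± 7.13 CPM in the same mNPC nucleoplasm, and the share of reads it lent to Cntnap1 was not tested.

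**Figure D1:**
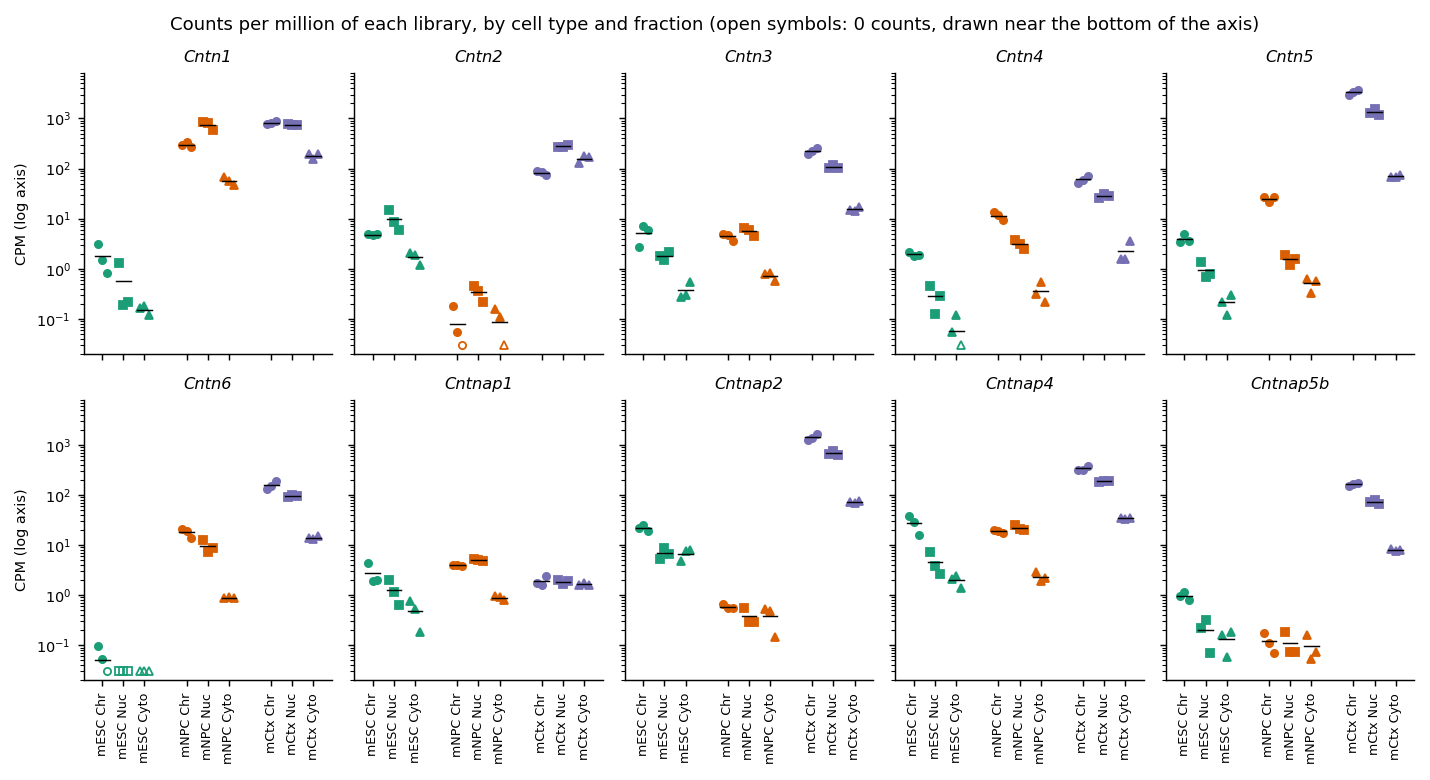
CPM (log axis) of each of the 27 libraries for the 10 genes, grouped by cell type and fraction, with a bar at each group mean and open symbols for libraries with 0 counts. Cntn1 is high in both mNPC and mCtx, Cntn2 and Cntnap2 dip in mNPC, and Cntnap1 stays at or under 5.37 CPM in every library.

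Between genes, levels were compared per length. In mCtx chromatin Cntn1, Cntn5 and Cntn2 led at 2.86 ± 0.220, 2.69 ± 0.296 and 2.46 ± 0.197 CPM per kb of span (SD, n = 3), and Cntn4 was last at 0.0601 ± 0.0101 CPM per kb. In mCtx cytoplasm Cntn2 led at 4.73 ± 0.815 CPM per kb, followed by Cntn1 at 0.624 ± 0.0795 and Cntnap4 at 0.111 ± 0.00225. By TPM the mCtx cytoplasm order began with Cntn1 at 10.8 ± 0.977, Cntn2 at 9.27 ± 1.71 and Cntnap2 at 7.88 ± 0.818 TPM. It ended with Cntn4 at 0.140 ± 0.0173 and Cntnap1 at 0.0867 ± 0.0252 TPM. The pair of measures thus placed Cntnap2 differently, among the leaders by TPM and at 0.0322 ± 0.00146 CPM per kb by counts over its long span.

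**Figure D2:**
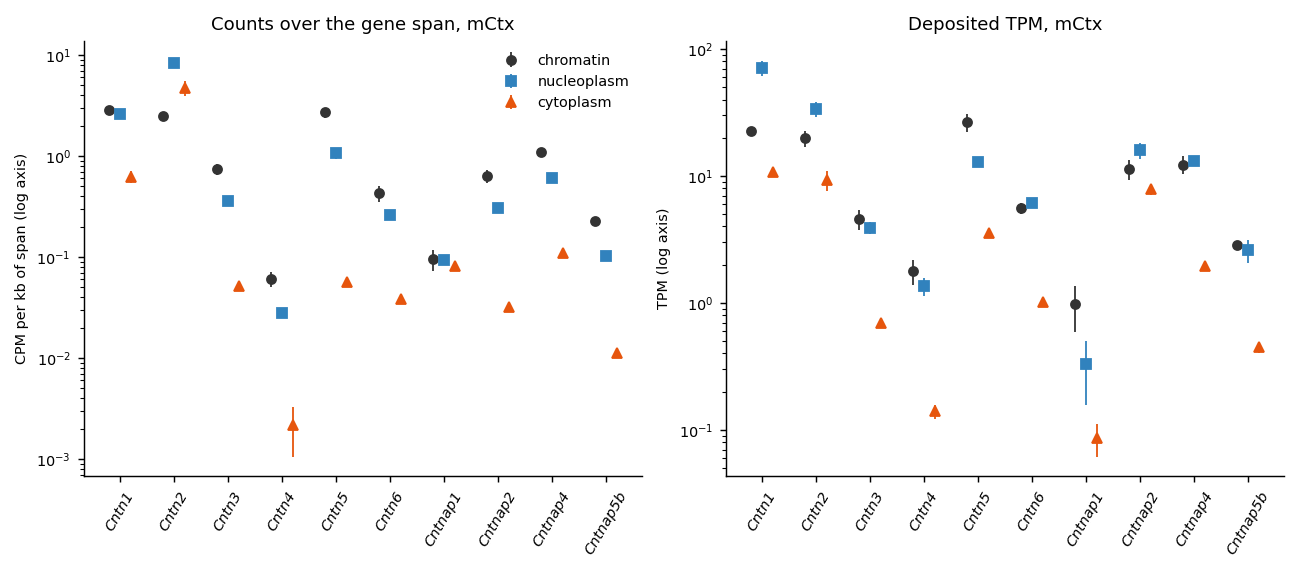
Group means ± SD of the 3 mCtx libraries per fraction, as CPM per kb of gene span (left, log axis) and as deposited TPM (right, log axis). Cntn2 is the gene with more span-scaled signal in cytoplasm (4.73) than in chromatin (2.46), while by TPM its chromatin value (19.9) is above its cytoplasmic value (9.27).

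Of the family non-members, Cntnap5a and Cntnap5c were also high in mCtx, whereas Cntnap3 had similar mean levels in mESC and mCtx chromatin and was lowest in mNPC. Cntnap5a was at 732 ± 81.3 CPM and Cntnap5c at 174 ± 19.8 CPM in mCtx chromatin (SD, n = 3), and both were under 1 CPM in every mESC and mNPC library. Cntnap3 was at 16.6 ± 1.91 CPM in mESC chromatin, 0.167 ± 0.108 CPM in mNPC chromatin and 18.1 ± 1.54 CPM in mCtx chromatin, a course like that of Cntn2 and Cntnap2 in having its lowest values in mNPC.

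Cell types were compared by edgeR's quasi-likelihood test with Benjamini-Hochberg adjustment over all 18249 genes, and a gene was called at an adjusted p under 0.05. From mESC to mNPC the genes split. In chromatin 4 members were higher and 4 lower in mNPC, where 33.8% of all genes were higher and 42.7% lower. Cntn1 rose 163-fold (log2 fold change 7.35, SE 0.31), Cntn4 5.90-fold (2.56, SE 0.26) and Cntn5 6.27-fold (2.65, SE 0.18). Cntn6 also rose, its ratio of 356 having a 95% counting interval of 122 to 1730 because it rests on 3 mESC reads. Cntnap2 fell by 5.22 on the log2 scale (SE 0.31). Cntn2 and Cntnap5b also fell, with 4 and 6 reads in mNPC: the mESC level was 59.8 times the mNPC level for Cntn2 (95% counting interval 23.1 to 221) and 8.03 times for Cntnap5b (3.47 to 22.8). Cntn2 and Cntnap2, the juxtaparanodal pair, therefore both fell. Cntnap4 fell by 0.55 (SE 0.23, adjusted p = 0.0364), a call lost without mESC_Chr replicate 1 (log2 fold change -0.24), mESC_Chr replicate 2 (-0.53), mNPC_Chr replicate 2 (-0.55) or replicate 3 (-0.49). Cntn3 (-0.22, SE 0.23) and Cntnap1 (0.50, SE 0.32) did not pass. Without mESC_Chr replicate 1 both passed, at -0.54 and 1.0.

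In cytoplasm 4 members were higher and 2 lower in mNPC than in mESC, against 36.5% and 39.4% of all genes. Cntn1 rose 351.9-fold (log2 fold change 8.46, SE 0.76), a value that rests on 8 mESC reads in all. Cntn6 was at least 4.91-fold higher, set against a floor of 3 reads per mESC library. Cntn4 passed with a ratio of 6.39 and a 95% counting interval of 1.88 to 33.7, its mESC cytoplasm holding 3 reads in all. Cntn5 rose 2.34-fold (1.22, SE 0.49, adjusted p = 0.0197), which did not pass with DESeq2 (1.11) or without mESC_Cyto replicate 2 (0.96) or mNPC_Cyto replicate 1 (1.01). Cntnap2 fell by 4.02 on the log2 scale (SE 0.36). Cntn2 fell to 5 reads in mNPC, the mESC level being 17.6 times that of mNPC (95% counting interval 7.29 to 55.7). Cntn3 (0.99, SE 0.50), Cntnap1 (0.83, SE 0.45), Cntnap4 (0.23, SE 0.35) and Cntnap5b (-0.44, SE 0.64) did not pass. Cntn3 passed without mESC_Cyto replicate 3 (1.36), and Cntnap1 without mESC_Cyto replicate 1 (1.29).

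From mNPC to mCtx nearly the whole family rose. In chromatin 9 members were higher and 1 lower, against 30.2% and 39.2% of all genes. The rises were largest for the 3 genes with the fewest mNPC reads. Cntnap2, with 29 such reads, rose by a log2 fold change of 11.22 (SE 0.31). Cntnap5b had a ratio of 1350 with a 95% counting interval of 621 to 3680, and Cntn2 one of 1030 with an interval of 400 to 3760. Cntn5 followed with 7.07 (SE 0.16), Cntn3 with 5.64 (SE 0.21), Cntnap4 with 4.19 (SE 0.23) and Cntn6 with 3.14 (SE 0.17). The smallest rises were those of Cntn4 (2.40, SE 0.22) and Cntn1 (1.47, SE 0.24). Cntnap1 fell by 1.04 (SE 0.34, adjusted p = 0.00915). In cytoplasm all 10 members were higher, against 32.6% of genes higher and 33.4% lower. Cntn2 and Cntnap5b, each with 5 mNPC reads, had ratios of 1620 (95% counting interval 696 to 5000) and 82.5 (35 to 256). Cntnap2 rose by a log2 fold change of 7.45 (SE 0.35) and Cntn5 by 7.08 (SE 0.30). The other long genes Cntn3, Cntn6, Cntnap4 and Cntn4 rose by 4.38 (SE 0.33), 3.96 (SE 0.28), 3.89 (SE 0.29) and 2.53 (SE 0.43). Cntn1 rose 3.18-fold (1.67, SE 0.24). Cntnap1 rose 1.84-fold (0.88, SE 0.39, adjusted p = 0.0459), and that call was lost when any of the 6 libraries was left out, at values from 0.81 to 0.93.

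Against stem cells, 9 members were higher in mCtx chromatin and Cntnap1 did not pass (-0.54, SE 0.35; it passed at -1.33 with total-count scaling), where 33% of all genes were higher and 47.4% lower. Cntn5 rose 843-fold (log2 fold change 9.72, SE 0.18), Cntn1 452.5-fold (8.82, SE 0.31) and Cntnap5b 167-fold (7.38, SE 0.19). Cntn6 had a ratio of 3100 with a 95% counting interval of 1060 to 15000. Cntnap2 rose by a log2 fold change of 6.0 (SE 0.17), Cntn3 by 5.42 (SE 0.20), Cntn4 by 4.97 (SE 0.25), Cntn2 by 4.10 (SE 0.22) and Cntnap4 by 3.65 (SE 0.23). In cytoplasm all 10 passed and were higher in mCtx, against 40.1% higher and 41.6% lower over all genes. Cntn1 rose by 10.13 (SE 0.76), Cntn5 by 8.30 (SE 0.42), Cntn2 by 6.53 (SE 0.27), Cntnap5b by 5.81 (SE 0.42), Cntn3 by 5.37 (SE 0.42) and Cntnap4 by 4.12 (SE 0.30) on the log2 scale. The mESC cytoplasm held 8 reads of Cntn1, 11 of Cntn5, 7 of Cntnap5b and 19 of Cntn3 in all. Cntnap2 rose 10.7-fold (3.43, SE 0.18) and Cntnap1 3.27-fold (1.71, SE 0.43). Cntn6 was at least 77.5-fold higher, and Cntn4 had a ratio of 36.5 with a 95% counting interval of 12.1 to 180.

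The median log2 fold change of the 10 members was 5.71 in mCtx versus mESC chromatin and 5.59 in cytoplasm, beside -0.38 and -0.05 over all genes. Long genes as a class leaned the same way. Of the 2359 tested genes with a span of 100 kb or more, 62.9% were higher in mCtx chromatin and 61.2% in mCtx cytoplasm, compared with mESC. The 8 long members were higher in both.

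Within a cell type the RNA of most members was weighted towards chromatin. In mESC 9 members were higher in chromatin than in cytoplasm, while 44.6% of all genes were higher and 32.9% lower. Cntn4 had a ratio of 33.9 with a 95% counting interval of 11.3 to 167, and Cntn5 was 18.1-fold higher (log2 fold change 4.17, SE 0.43). Cntn3 (3.80, SE 0.43), Cntnap4 (3.78, SE 0.30), Cntn1 (3.50, SE 0.79) and Cntnap5b (2.78, SE 0.44) followed. The mESC cytoplasm held 11 reads of Cntn5, 19 of Cntn3, 8 of Cntn1 and 7 of Cntnap5b over its libraries. The shorter Cntnap1 (2.47, SE 0.41) and Cntn2 (1.49, SE 0.29) and the long Cntnap2 (1.71, SE 0.18) had the smallest differences. Cntn6 had too few reads for a fold.

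In mNPC 7 members were higher in chromatin than in cytoplasm, against 37% of genes higher and 32.5% lower. Cntn5 led with 48.4-fold (log2 fold change 5.60, SE 0.30), then Cntn4 with 30.9-fold (4.95, SE 0.41) and Cntn6 with 20.0-fold (4.32, SE 0.28). Cntnap4 (3.00, SE 0.30), Cntn3 (2.59, SE 0.34), Cntn1 (2.39, SE 0.24) and Cntnap1 (2.14, SE 0.37) were next. Cntn2 (-0.24, SE 1.20), Cntnap2 (0.52, SE 0.44) and Cntnap5b (0.29, SE 0.66), each with at most 29 reads in either group's 3 libraries, did not pass.

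In mCtx 8 members were higher in chromatin and 1 lower, against 35.6% and 37.6% of all genes. Cntn5 was 48.1-fold higher (log2 fold change 5.59, SE 0.16), Cntn4 28.4-fold (4.83, SE 0.26), Cntnap5b 20.3-fold (4.35, SE 0.13) and Cntnap2 19.5-fold (4.29, SE 0.16). Cntn3 was at 3.85 (SE 0.19), Cntn6 at 3.50 (SE 0.18), Cntnap4 at 3.31 (SE 0.23) and Cntn1 at 2.19 (SE 0.24). The exceptions were the pair of short genes. Cntn2 was lower in chromatin, by 0.94 on the log2 scale (a log2 fold change of -0.94, SE 0.19, adjusted p = 0.0001), with 75.2 to 87.9 CPM in chromatin below 127 to 177 CPM in cytoplasm. Cntnap1 did not pass (0.22, SE 0.37). The median over members was 3.67, beside 0 over all genes.

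The members' weighting can be read beside genes of like size. Among the 2359 tested genes spanning 100 kb or more, the share higher in chromatin than cytoplasm was 89.3% for mESC, 78.5% for mNPC and 88.3% for mCtx. Of the 8 long members 7, 6 and 8 were higher. Their share thus lay near that of other long genes, and the chromatin weighting is not particular to the family.

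Nucleoplasm mostly held less than chromatin. In mESC 8 members were lower in nucleoplasm than chromatin and 1 was higher, against 36.3% and 30% of all genes. The falls ran from 1.13 for Cntnap1 (SE 0.35) to 2.71 for Cntn4 (SE 0.47) on the log2 scale, and Cntn2 rose 2.03-fold (log2 fold change 1.02, SE 0.23). The calls of Cntn1 and Cntnap1 were lost without mESC_Chr replicate 1, at -0.97 and -0.63. With total-count scaling, which moved the median of all genes from -0.16 to -0.72, 0 members were higher and 9 lower, and Cntn2 did not pass (0.46). In mCtx 7 were lower and Cntn2 was higher, against 26.5% and 30.6% of all genes. Cntn2 rose 3.35-fold (1.75, SE 0.19), the 7 falls lay between 0.72 for Cntn6 (SE 0.17) and 1.34 for Cntn5 (SE 0.16), and Cntn1 (-0.13, SE 0.24) and Cntnap1 (-0.04, SE 0.37) did not pass. Most tested genes spanning 100 kb or more were also lower in nucleoplasm, 84.1% in mESC and 73.9% in mCtx. Of the 8 long members 7 were lower in each.

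In mNPC Cntn1 was higher in nucleoplasm than in chromatin, 2.52-fold (log2 fold change 1.33, SE 0.24), and 3 members were lower, against 32.5% and 33.5% of all genes. Of the tested genes spanning 100 kb or more 10.7% were higher and 66% lower, beside 1 and 3 of the 8 long members. Cntn5 fell by 4.02 (SE 0.23), Cntn4 by 1.91 (SE 0.26) and Cntn6 by 0.93 (SE 0.19) on the log2 scale. Cntn3 (0.33, SE 0.24), Cntnap4 (0.23, SE 0.24), Cntnap1 (0.36, SE 0.32), Cntnap2 (-0.66, SE 0.49) and Cntnap5b (-0.19, SE 0.70) did not pass. Cntn2 was at 1.97 (SE 1.03) and passed only in some settings, among them DESeq2 (2.1), without mNPC_Chr replicate 1 (3.18) and without mNPC_Nuc replicate 3 (2.23). The difference in Cntn1 between mNPC and the other cell types was not tested for this pair of fractions.

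**Figure D3:**
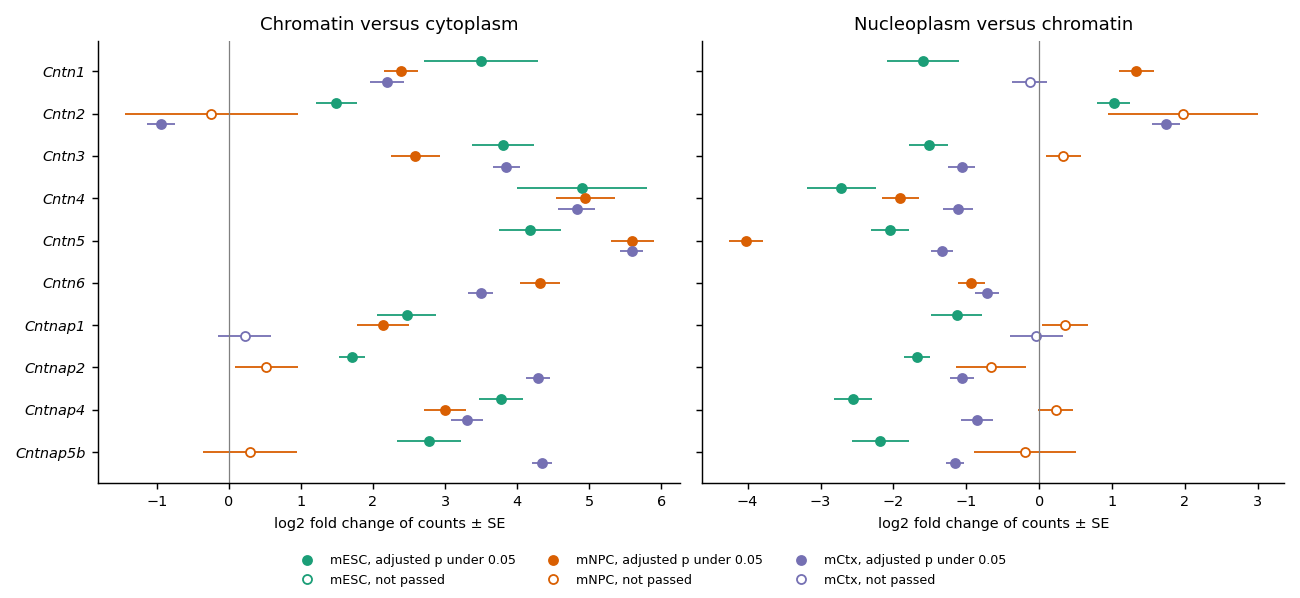
Log2 fold change of counts ± SE between fractions within each cell type, chromatin versus cytoplasm on the left and nucleoplasm versus chromatin on the right, with filled points for genes past an adjusted p of 0.05 and no point where a group had 0 reads. Most points lie right of 0 on the left and left of 0 on the right, with Cntn2 of mCtx at -0.94 and 1.75 as the opposite case.

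TPM gave another view of the same libraries. The transcript set behind it, spliced only or with introns, is not given in the sources used here. Its differences are given on the log2(TPM + 1) scale, which understates changes of low genes. By limma on that scale, 6 members were higher and 1 lower in chromatin than in cytoplasm in mESC, 5 were higher in mNPC and 10 in mCtx. Over all 31006 genes tested by TPM, 17193 were higher and 4814 lower in mESC. In mNPC 12036 were higher and 4365 lower, and in mCtx 20981 and 2915. Cntnap2 in mESC went opposite ways. Its chromatin counts were 439, 483 and 370 against 89, 127 and 130 in cytoplasm, whereas its TPM were 0.39, 0.67 and 0.37 in chromatin against 0.91, 1.96 and 1.92 in cytoplasm. Neither pair of ranges overlapped. The log2 fold change of counts was 1.71 (SE 0.18) and the TPM difference was -0.79 (SE 0.18, adjusted p = 0.000445 by limma). RefSeq lists a second Cntnap2 start near the 3′ end of the span, the downstream window printed above, and reads from that start cannot be told apart from the rest in either table. The part of that start in the difference between measures was not tested.

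Cntn2 in mCtx also differed by measure. Its TPM were 20.3, 22.5 and 16.7 in chromatin and 7.5, 10.9 and 9.38 in cytoplasm, a difference of 1.03 (SE 0.14), opposite to its counts. After rescaling TPM by the median ratio, an alternative added after seeing the data, Cntn2 was at -0.37, and the TPM differences of Cntn1 and Cntnap2 turned to -0.4 and -0.87. The direction of these 3 genes by TPM in mCtx therefore changed with the scaling, while that of the other 7 did not. Over all genes tested the TPM median difference for this comparison was 0.94 before the rescaling and 0.32 after it.

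The nucleoplasm comparison changed more with the measure. By TPM 1 member was higher in nucleoplasm than chromatin and 4 were lower in mESC, with Cntn2 lower (-0.41) and Cntnap2 higher (0.59), opposite to the counts. Over all genes tested by TPM 3638 were higher and 16124 lower there. In mNPC Cntn6 was 0.22 higher by TPM and lower by counts, and in mCtx Cntnap2 was 0.46 higher by TPM and lower by counts. Cntn1 in mCtx nucleoplasm was 1.60 higher than chromatin by TPM, at 82.3, 63.1 and 68.6 TPM against 21.8, 23.3 and 22.9 TPM, while its counts did not pass (-0.13). In mNPC Cntn1 was also higher in nucleoplasm by TPM (1.98). Between cell types, Cntnap4 in mNPC versus mESC chromatin passed in both measures in opposite directions, 0.44 higher by TPM.

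**Figure D4:**
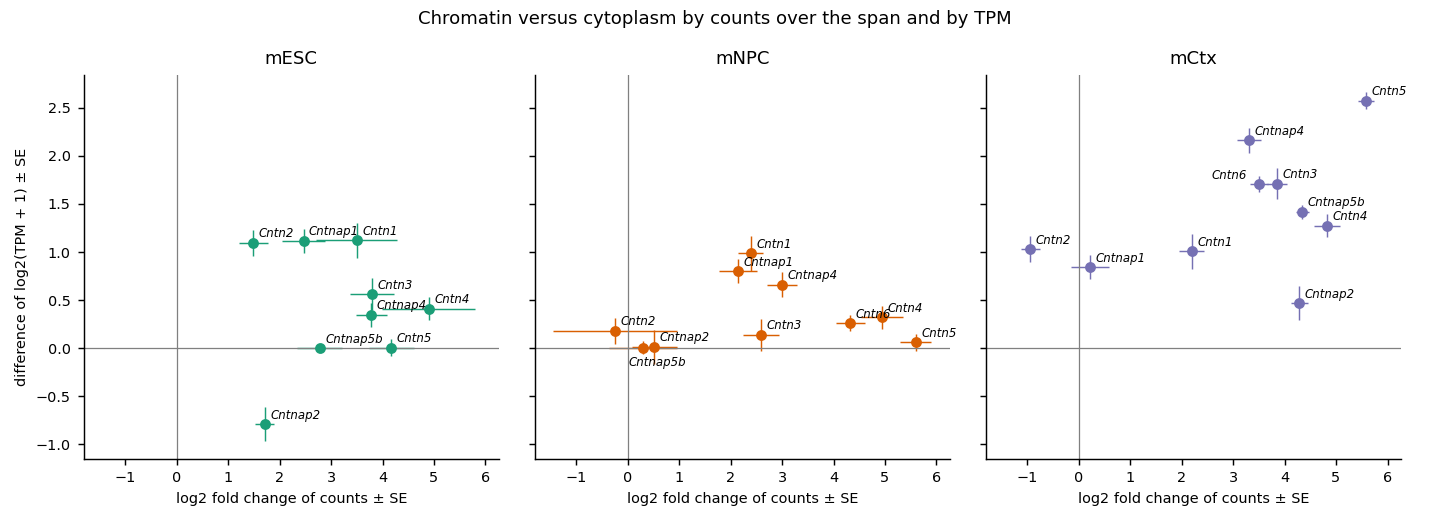
Chromatin versus cytoplasm for each gene in the 3 cell types, the log2 fold change of counts over the span on the horizontal axis and the difference of log2(TPM + 1) on the vertical axis, both ± SE; genes with a group at 0 reads are left out. Cntnap2 of mESC (1.71, -0.79) and Cntn2 of mCtx (-0.94, 1.03) lie in opposite quadrants.

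The chromatin-to-cytoplasm ratio was compared between cell types as a difference of the 2 contrasts in the same edgeR fit. By counts, the ratio in mCtx relative to mESC was higher for Cntnap2 (log2 difference 2.58, SE 0.25), Cntnap5b (1.57, SE 0.46) and Cntn5 (1.42, SE 0.46), and lower for Cntn2 (-2.43, SE 0.34) and Cntnap1 (-2.24, SE 0.55). These 3 higher and 2 lower members stand beside 17.7% and 32.5% of all genes. Among tested genes spanning 100 kb or more 25.3% were higher and 24.5% lower, beside 3 and 0 of the 8 long members. With the replicate block 3 members were higher and 4 lower, Cntn1 (-1.33) and Cntnap4 (-0.48) being added. By log2(TPM + 1) 7 were higher and 0 lower by limma, with all 7 also at an unadjusted p under 0.05, and neither Cntn2 (-0.07, adjusted p = 0.773) nor Cntnap1 (-0.27, adjusted p = 0.196) passed. Over all genes tested by TPM 14676 were higher and 4026 lower. By counts with edgeR the adjusted p-values were 3.62e-09 for Cntnap2, 1.26e-06 for Cntn2, 0.00105 for Cntnap1, 0.0253 for Cntn5 and 0.0473 for Cntnap5b. Leaving out mESC_Cyto replicate 1 or replicate 3 left 3 of the 5 calls, with Cntn5 at 1.4 and 1.11 and Cntnap5b at 1.41 and 1.33. The Cntnap5b call was also lost without mESC_Chr replicate 1 (1.57) or 3 (1.44), mCtx_Chr replicate 2 (1.53) or 3 (1.51) and mCtx_Cyto replicate 2 (1.53) or 3 (1.57). Without mESC_Chr replicate 3, Cntn1 passed at -1.64. With total-count scaling, which moved the median of all genes for this comparison from -0.42 to -1.43, 1 member was higher and 5 were lower, Cntn5 (0.38) and Cntnap5b (0.54) no longer passing.

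Relative to mNPC, the mCtx ratio was higher for 3 members, Cntnap5b (4.05, SE 0.67), Cntnap2 (3.77, SE 0.47) and Cntn3 (1.26, SE 0.39), and lower for Cntnap1 (-1.92, SE 0.52) and Cntn6 (-0.83, SE 0.33), against 12.2% and 21.8% of all genes. In mNPC the first 2 rest on 11 Cntnap5b reads and 50 Cntnap2 reads over both fractions. Among tested genes spanning 100 kb or more 29.4% had a higher ratio and 9.11% a lower one, beside 3 and 1 of the 8 long members. Without mNPC_Cyto replicate 1 there were 2 calls, Cntnap5b (3.46), Cntn3 (1.2) and Cntn6 (-0.83) being lost. Without mNPC_Cyto replicate 2 there were 3 calls, Cntn3 (1.18) and Cntn6 (-0.85) being lost. The Cntn6 call (adjusted p = 0.0487) was lost without each of the 12 libraries except mNPC_Chr replicate 3 and mCtx_Chr replicate 3, at values from -0.88 to -0.69, and with DESeq2 (-0.6). By log2(TPM + 1) 7 were higher and 0 lower by limma, among them Cntn6 (1.45) and Cntn2 (0.85, adjusted p = 0.000744), whose count value of -0.69 did not pass. Over all genes tested by TPM 17352 were higher and 912 lower. Total-count scaling gave 2 higher and 4 lower members, with Cntn3 lost at 0.52, and moved the median of all genes from -0.20 to -0.93.

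Between mNPC and mESC only Cntn5 (1.42, SE 0.53, adjusted p = 0.0461) and Cntnap5b (-2.48, SE 0.79, adjusted p = 0.0454) passed, 1 higher and 1 lower, against 16.7% and 23.5% of all genes. Among tested genes spanning 100 kb or more 12.7% were higher and 30.6% lower, beside 1 and 1 of the 8 long members. With the replicate number as a block there were 5 calls among the members, 1 higher and 4 lower, which added Cntn3 (-1.17), Cntnap2 (-1.19) and Cntnap4 (-0.77). With total-count scaling 0 were higher and 4 lower, and Cntn5 (1.14) was lost. Without mNPC_Chr replicate 3 there were 0 calls by edgeR, with 3 members at an unadjusted p under 0.05. There was 1 call without mESC_Chr replicate 2, mESC_Cyto replicate 1, mNPC_Chr replicate 1 or 2, or mNPC_Cyto replicate 1, 2 or 3. Without mNPC_Cyto replicate 3 the call was Cntnap2 (-1.51), and both Cntn5 and Cntnap5b were lost. Without a low-count filter both were also lost, at 1.4 and -2.51, and Cntn3 (-1.25) and Cntnap2 (-1.23) passed. The values across the omissions lay between 1.11 and 1.5 for Cntn5 and between -2.61 and -1.89 for Cntnap5b where they did not pass.

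**Figure D5:**
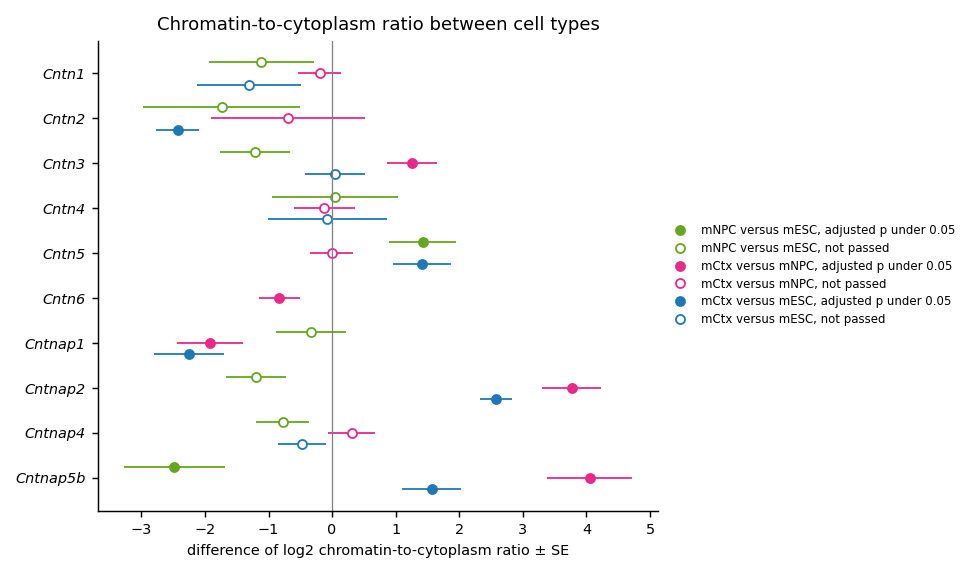
Difference in log2 chromatin-to-cytoplasm ratio ± SE for the 3 pairs of cell types, with filled points past an adjusted p of 0.05 and no point where a group had 0 reads. Cntnap2 stands at 2.58 and 3.77 in the pairs with mCtx, and Cntnap1 at -2.24 and -1.92.

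A list of 20 partners and neighbours of these proteins, among them receptor phosphatases, L1-family adhesion proteins and axonal potassium channels, was counted in the same fit, and all 20 were tested. In mCtx 12 were higher and 4 lower in chromatin than in cytoplasm, beside 35.6% and 37.6% of all genes. The list was not split by span, and of tested genes spanning 100 kb or more 88.3% were higher. The receptor phosphatase Ptprg, which binds several contactins, was higher by a log2 fold change of 3.78 (SE 0.26), the axon initial segment anchor Ank3 by 3.36 (SE 0.18), the matrix protein Tnr by 2.67 (SE 0.21), and the L1-family genes Nrcam and Nfasc by 2.50 (SE 0.21) and 2.19 (SE 0.21). Aplp1, of the amyloid precursor protein family, fell by 2.80 (SE 0.20). In cytoplasm 15 were higher and 4 lower in mCtx than in mNPC, beside 32.6% and 33.4%. The potassium channel Kcna1, which clusters with Cntn2 and Cntnap2 on axons, rose by 10.06 (SE 1.19) and the adhesion gene L1cam by 9.86 (SE 0.78). Chl1 (6.84, SE 0.16), Ank3 (6.10, SE 0.21), Nfasc (6.0, SE 0.28) and Sptbn4 (5.58, SE 0.30), a spectrin of axon initial segments and nodes, also rose. Kcna2, the other channel of the same axon segment on the list and named here after its values were seen, fell by 1.08 in cytoplasm (SE 0.20) and by 3.21 in chromatin (SE 0.22). In the ratio of mCtx versus mESC 3 were higher and 14 lower, beside 17.7% and 32.5%.

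The genes with the most similar course over the 9 group means, by Pearson's r of log2(CPM + 0.5) among 13119 candidates, were named for each member as a description over points that share libraries. Cntn5 was closest to Fam155a (r = 0.999) and Luzp2 (0.998), Cntnap5b to L3mbtl4 (0.999) and Prr16 (0.998), and Cntn1 to Sez6l (0.995) and Sema3a (0.994). Cntn2 was closest to Sema4f (0.993) and L1cam (0.990), Cntn6 to Slc24a4 (0.994) and Unc5c (0.991), and Cntnap2 to Grip2 (0.993) and Pla2g4e (0.992). Cntnap4 was closest to Adamts17 (0.990) and Acvr1 (0.984), and Cntn3 to Clstn2 (0.989) and its fellow member Cntnap4 (0.982). Cntn4 was closest to 4933406I18Rik (0.985) and Eif4g3 (0.984), and Cntnap1 to Ggcx (0.927) and Mfsd11 (0.925), the lowest values of the 10.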

How the data were processed

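RNA over 200 nt, depleted of ribosomal RNA, was sequenced as paired 100 bp stranded reads, per the labels' protocols. The authors deposited a table of gene counts and a table of TPM. The submitters' processing notes name STAR, featureCounts, kallisto and mm10, without versions or roles. Every deposited count is a whole number over the gene's span, since length equals span in all 37332 rows. The chromatin columns were recorded here under the unit expected count only because a format check misread their names; as deposited by the authors they hold raw whole-number counts like the others, and no estimated counts were used. How strand and overlapping genes were handled is not given in the sources used here.

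Counts were tested with edgeR 4.0.16 (quasi-likelihood, TMM scaling, filterByExpr, all 27 libraries, 18 residual degrees of freedom, Benjamini-Hochberg threshold 0.05) in 15 comparisons. The script was tested on simulated data. CPM were computed on library totals scaled by TMM. TPM was tested with limma 3.58.1 on log2(TPM + 1) over 31006 genes with a mean TPM of at least 0.1. Alternatives were DESeq2 1.42.0, other scalings, no filter, only the compared groups, the replicate block, another pseudocount and leaving out each library. Counting intervals are exact, at 95% confidence, and cover counting error only, as does the floor of 3 reads. Promoters came from RefSeq on GRCm38.p6. All 10 members are named in every comparison, the 3 family non-members by levels only, up to 6 partners by largest passing change, and for each member the 2 most similar genes among those reaching 10 CPM in a group. The members and lists were chosen with earlier results of these data known.

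Whether equal replicate numbers pair libraries was examined on deviations from group means. Libraries sharing a number correlated at 0.427 to 0.59 between mESC fractions, -0.007 to 0.404 in mNPC, -0.256 to 0.362 in mCtx and -0.157 to 0.186 between cell types. From the data alone, equal numbers looked like pairs for all fractions only in mESC. The main fit used no pairing, in mESC or elsewhere, so its p-values are unpaired. The replicate block of the alternatives used the numbers in all 3 cell types.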

Additional observations from a re-analysis of the deposited data

Results flagged for a closer look

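The chromatin-to-cytoplasm ratio of 7 members differed between cell types by edgeR's interaction test (Benjamini-Hochberg adjusted p under 0.05), which is what marked the 12 values here. Over all genes 17.7% were higher and 32.5% lower in mCtx versus mESC. The shares were 12.2% and 21.8% in mCtx versus mNPC, and 16.7% and 23.5% in mNPC versus mESC. Among tested genes spanning 100 kb or more 25.3% were higher and 24.5% lower in mCtx versus mESC. The long-gene shares were 29.4% and 9.11% in mCtx versus mNPC, and 12.7% and 30.6% in mNPC versus mESC. In mCtx versus mESC the log2 ratio differed by 2.58 for Cntnap2 (adjusted p = 3.62e-09), by -2.43 for Cntn2 (1.26e-06) and by -2.24 for Cntnap1 (0.00105). In the same pair Cntn5 differed by 1.42 (0.0253) and Cntnap5b by 1.57 (0.0473). In mCtx versus mNPC Cntnap2 differed by 3.77 (2.67e-06), Cntnap5b by 4.05 (0.000586) and Cntnap1 by -1.92 (0.00475). In that pair Cntn3 differed by 1.26 (0.0181) and Cntn6 by -0.83 (0.0487). In mNPC versus mESC Cntn5 differed by 1.42 (0.0461) and Cntnap5b by -2.48 (0.0454). The calls of Cntn3, Cntn5, Cntn6 and Cntnap5b were each lost in some omissions of 1 library, as given above. By log2(TPM + 1) Cntn6 went the other way in mCtx versus mNPC, at 1.45. Cntn2 (-0.07) and Cntnap1 (-0.27) in mCtx versus mESC did not pass by TPM with limma. Neither did Cntnap2 (0.45) and Cntnap1 (0.04) in mCtx versus mNPC, nor Cntn5 (0.06) and Cntnap5b (0.00) in mNPC versus mESC. The others passed in the same direction: Cntnap2 (1.26), Cntn5 (2.57) and Cntnap5b (1.42) in mCtx versus mESC, and Cntn3 (1.57) and Cntnap5b (1.41) in mCtx versus mNPC.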

How the results depend on the processing

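Of the 144 member results, those of Cntn6 against a group at 0 aside, 143 kept direction and side of the threshold with median-ratio size factors, 140 with DESeq2, 137 with only the compared groups, 136 without a low-count filter and 128 with total-count scaling. Total-count scaling turned Cntn3's ratio in mCtx versus mESC from 0.05 to -0.99. Leaving out 1 library kept 967 values and lost 51 calls. TPM kept fewer: with log2(TPM + 1) 88 of the 144 were kept, 26 changed sign, 23 lost their call and 7 gained one. A change of sign was counted when either measure passed, so not all 26 passed by TPM. Cntnap1 in mCtx versus mESC cytoplasm, for instance, was at -0.03 by TPM (adjusted p = 0.998 by limma). With log2(TPM + 0.1) 96 were kept, and with rescaled TPM 86. Depth limits Cntn6 and Cntnap5b in mESC and Cntn2, Cntnap2 and Cntnap5b in mNPC. It also limits Cntn1, Cntn3, Cntn4 and Cntn5 in mESC cytoplasm, with 8, 19, 3 and 11 reads in all. Cntn4 had 19 reads in mNPC cytoplasm. The cause of the changes listed here was not tested.

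The number of members called moved by over 1.5 times as follows. By rescaled TPM it was 5 in chromatin versus cytoplasm in mESC, 3 in nucleoplasm versus chromatin in mESC, 4 in mNPC versus mESC chromatin, 2 in mNPC versus mESC cytoplasm and 8 in the ratio of mCtx versus mESC. By log2(TPM + 1), with or without a TPM filter, it was 5 in nucleoplasm versus chromatin in mESC, 5 in the same comparison in mCtx and 2 in mNPC versus mESC cytoplasm. By log2(TPM + 0.1) it was 4 in nucleoplasm versus chromatin in mCtx and 5 in the ratio of mNPC versus mESC. That ratio gave 4 calls with total counts and 0 with only the compared groups by edgeR, where 3 members had an unadjusted p under 0.05. Leaving out 1 library gave 0 to 3 calls there, 2 to 5 in the ratio of mCtx versus mNPC and 3 to 5 in that of mCtx versus mESC. Without the 3 mESC libraries numbered 1, an alternative added after seeing the data, the last gave 3.

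With the replicate block the ratio of mNPC versus mESC gave 5 calls, and the block added Cntn2 in nucleoplasm versus chromatin of mNPC (2.07) and, in the ratio of mCtx versus mESC, Cntn1 (-1.33) and Cntnap4 (-0.48). It changed no other member's call.

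TPM gave the opposite sign for the members below, or no difference where the value is 0.00, with the log2 value from counts in brackets. A member is listed where either measure passed, so TPM values near 0 need not have passed. Log2(TPM + 1) gave the same values without a TPM filter. In chromatin versus cytoplasm in mESC, Cntnap2 (1.71) was at -1.52 by log2(TPM + 0.1), -0.79 by log2(TPM + 1) and -0.98 by rescaled TPM. Cntnap5b (2.78) was at 0.00 by log2(TPM + 0.1), log2(TPM + 1) and rescaled TPM, and Cntn5 (4.17) was at 0.00 by log2(TPM + 1) and rescaled TPM. In chromatin versus cytoplasm in mNPC, Cntn2 (-0.24) was at 1.19 by log2(TPM + 0.1). In chromatin versus cytoplasm in mCtx, Cntn1 (2.19) was at -0.40 by rescaled TPM and Cntn2 (-0.94) was at 1.10 by log2(TPM + 0.1) and 1.03 by log2(TPM + 1). Cntnap2 (4.29) was at -0.87 by rescaled TPM. In nucleoplasm versus chromatin in mESC, Cntn2 (1.02) was at -0.74 by log2(TPM + 0.1), -0.41 by log2(TPM + 1) and -0.10 by rescaled TPM and Cntn5 (-2.04) was at 0.00 by log2(TPM + 1) and 0.00 by rescaled TPM. Cntnap2 (-1.68) was at 1.17 by log2(TPM + 0.1), 0.59 by log2(TPM + 1) and 0.68 by rescaled TPM. Cntnap5b (-2.18) was at 0.00 by log2(TPM + 1). In nucleoplasm versus chromatin in mNPC, Cntn2 (1.97) was at -0.75 by log2(TPM + 0.1) and Cntn4 (-1.91) was at 0.19 by rescaled TPM. Cntn6 (-0.93) was at 0.62 by log2(TPM + 0.1), 0.22 by log2(TPM + 1) and 0.67 by rescaled TPM and Cntnap1 (0.36) was at -1.54 by log2(TPM + 0.1), -0.58 by log2(TPM + 1) and -0.36 by rescaled TPM. In nucleoplasm versus chromatin in mCtx, Cntn1 (-0.13) was at 1.64 by log2(TPM + 0.1), 1.60 by log2(TPM + 1) and 1.93 by rescaled TPM and Cntn3 (-1.06) was at 0.11 by rescaled TPM. Cntn6 (-0.72) was at 0.12 by log2(TPM + 0.1), 0.10 by log2(TPM + 1) and 0.38 by rescaled TPM and Cntnap2 (-1.06) was at 0.49 by log2(TPM + 0.1), 0.46 by log2(TPM + 1) and 0.76 by rescaled TPM. Cntnap4 (-0.85) was at 0.09 by log2(TPM + 0.1), 0.08 by log2(TPM + 1) and 0.41 by rescaled TPM and Cntnap5b (-1.16) was at 0.13 by rescaled TPM. In mNPC versus mESC in chromatin, Cntn4 (2.56) was at -0.05 by log2(TPM + 1) and Cntnap1 (0.50) was at -0.38 by log2(TPM + 1). Cntnap4 (-0.55) was at 1.08 by log2(TPM + 0.1), 0.44 by log2(TPM + 1) and 0.65 by rescaled TPM and Cntnap5b (-2.93) was at 0.09 by log2(TPM + 0.1), 0.01 by log2(TPM + 1) and 0.01 by rescaled TPM. In mCtx versus mNPC in chromatin, Cntnap1 (-1.04) was at 0.11 by log2(TPM + 0.1) and 0.07 by log2(TPM + 1). In mCtx versus mESC in cytoplasm, Cntnap1 (1.71) was at -0.17 by log2(TPM + 0.1) and -0.03 by log2(TPM + 1). In chromatin-to-cytoplasm ratio, mNPC versus mESC, Cntnap2 (-1.19) was at 1.65 by log2(TPM + 0.1), 0.81 by log2(TPM + 1) and 0.96 by rescaled TPM and Cntnap4 (-0.78) was at 0.43 by rescaled TPM. Cntnap5b (-2.48) was at 0.05 by log2(TPM + 0.1), 0.00 by log2(TPM + 1) and 0.00 by rescaled TPM. In chromatin-to-cytoplasm ratio, mCtx versus mNPC, Cntn2 (-0.69) was at 0.85 by log2(TPM + 1) and Cntn4 (-0.12) was at 1.43 by log2(TPM + 0.1) and 0.95 by log2(TPM + 1). Cntn5 (-0.01) was at 2.51 by log2(TPM + 0.1), 2.52 by log2(TPM + 1) and 1.20 by rescaled TPM and Cntn6 (-0.83) was at 1.20 by log2(TPM + 0.1), 1.45 by log2(TPM + 1) and 0.39 by rescaled TPM. Cntnap1 (-1.92) was at 0.04 by log2(TPM + 1) and Cntnap2 (3.77) was at -0.86 by rescaled TPM. In chromatin-to-cytoplasm ratio, mCtx versus mESC, Cntn4 (-0.07) was at 0.86 by log2(TPM + 1) and 0.41 by rescaled TPM and Cntnap4 (-0.47) was at 1.82 by log2(TPM + 1) and 0.71 by rescaled TPM.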
